A study of Mus musculus with 2 samples.

Results

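Paneth cells rich in alpha-defensin transcripts were picked out of 2 single-cell libraries of mouse small intestine by their own counts. A barcode, the tag of 1 droplet, was called a Paneth barcode when genes with symbols starting Defa, together with Lyz1, made up at least 10% of its UMIs (unique molecular identifiers, each of which marks 1 captured transcript). To be kept at all, a barcode needed 500 genes and 1000 UMIs or more, and 25% mitochondrial UMIs or fewer. The rule found 492 Paneth barcodes among 8761 kept ones, of 12591 in the deposited matrices. WT gave 248 of 3129 and the library labelled NFKO 244 of 5632. Because the defensin and lysozyme counts chose the cells, their total level is a description and not a finding, and no cluster or type name beyond the rule was used.

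The cells were Tomato-positive epithelial cells sorted from the small intestine of mice in which a Cre recombinase under Neurog3, a gene of endocrine progenitors, turns on the red reporter tdTomato. WT mice were Neurog3Cre; Rosa26tdtomato, and NFKO mice were Neurog3Cre-FoxO1 f/f; Rosa26tdtomato, so that Cre and reporter were common to both groups and the stated genotypes differed in the floxed FoxO1 alleles. The pools also differed in sex, as given below. Each group was 1 library from whole small intestines of 4 to 5 mice aged 4 to 6 weeks, with the attached pancreas removed, so that proximal and distal crypts were pooled. Only Paneth cells in which the Neurog3 driver had acted at some time were sorted, and Paneth cells without that history were not sampled.

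Paneth cells sit at the base of the intestinal crypts and release granules loaded with antimicrobial proteins. Alpha-defensins, called cryptdins in mice, are made as inactive precursors and are cut to their active form by the metalloproteinase Mmp7, while lysozyme digests bacterial cell walls. Paneth cells also support the neighbouring stem cells with Wnt, Notch and EGF family ligands, and they descend from the same secretory progenitors as the mucus-making goblet cells.

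The label was checked against the remaining markers. Mmp7, which the rule did not use, had 4980 CPM in the WT Paneth barcodes and 4943 in those of the NFKO-labelled library, where CPM stands for UMIs per 1000000 UMIs outside the Defa genes and Lyz1 unless stated. It had 521 and 379 CPM in the remaining kept barcodes. For detection, barcodes were thinned at random to 3000 UMIs outside the rule genes. Shallower barcodes were left out here and in every later share at 3000 UMIs, namely 1 WT Paneth barcode and 41 of the NFKO-labelled library. Mmp7 was then seen in 247 of 247 WT Paneth barcodes (100%, 98.5 to 100) and in 199 of 203 of the others (98.0%, 95 to 99.5). In tuft barcodes, which should lack it, the shares were 9.38% and 8.53% at the same depth, while in goblet barcodes they were 57.9% (54.2 to 61.4) and 41.4% (38.9 to 43.9), so Mmp7 detection alone does not set Paneth from goblet barcodes. Unthinned these shares were 100% and 99.2% in Paneth barcodes, of median depth 62173 and 41661 UMIs, against 16.0% and 25.9% in tuft barcodes, of median depth 5861 and 16523. Of 14 listed Paneth markers in the gene lists, 9 lay outside the rule, all 9 had UMIs in both libraries, and 8 of the 8 abundant enough to compare exceeded the remaining barcodes by 2-fold or more in both libraries, which 3.96% of all genes did. The 8 include AY761184, which RefSeq names as the alpha-defensin Defa39, so that marker is not independent of the rule. Immune markers were near 0, at a summed 0.424 and 0.443 CPM over 12 genes with Ptprc at 0, and the pancreatic acinar genes Cpa1, Prss2, Pnlip and Amy2a5 were at 0. Goblet markers were not near 0, and their values are given below beside the results they move with.

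Paneth barcodes were deep, with a median of 62173 UMIs in WT and 41661 in the NFKO-labelled library, against 16038 and 16913 in the remaining barcodes. They held 21310732 and 14809047 UMIs, of which 9428356 and 6770596 lay outside the rule genes, and 3 UMIs of the latter correspond to 0.318 and 0.443 CPM. The library labelled NFKO held more shallow Paneth barcodes, the lower quartile of UMIs outside the rule genes being 7322 against 26691 in WT. The median mitochondrial share was 1.75% and 1.25% in Paneth barcodes and 4.79% and 3.29% in the remaining ones. Foxo1, the targeted gene on chromosome 3, had 71 UMIs (7.53 CPM) in the WT Paneth barcodes and 57 (8.42 CPM) in the others, a ratio of 1.12 (0.775 to 1.61), so that no loss of its transcript was detectable. The paper, however, reports significantly lower FoxO1 expression in sorted Tomato-positive cells of NFKO mice, and no change of FoxO3 or FoxO4. The sources used here do not give the deleted part of the gene, and reads from a 3′ end outside it would check nothing. The counts here therefore cannot decide on the loss that the paper reports. The second library is called by its label throughout, as the NFKO-labelled library. The libraries also differed in sex: of the WT Paneth barcodes 213 typed as male and 0 as female by X- and Y-linked transcripts, and of the others 10 and 168. Genotype and sex therefore cannot be told apart here. The libraries shared 6 barcodes, of which 1 was a WT Paneth barcode and none was a Paneth barcode in both. Scrublet, a doublet caller, called 3 and 0 kept barcodes by its own threshold. A number of highest scores was set instead, at 0.8% per 1000 deposited barcodes, which came to 4.03% and 6.04% of all kept barcodes. Among these highest scores were 11 and 8 Paneth barcodes, or 4.44% and 3.28% of the Paneth barcodes. Neither group has a replicate, so nothing was tested. All intervals are exact 95% intervals for counting error only and say nothing of the spread between mice or libraries.

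The share of UMIs from the rule genes ran from the 10% limit to 78.4% in the NFKO-labelled library. The median was 41.0% in WT and 47.3% in the other library. Barcodes at 10 to 30% numbered 93 in WT and 85 in the NFKO-labelled library, those at 30 to 50% numbered 44 and 43, and those at 50% or more numbered 111 and 116. The distribution had no empty zone at the limit. From 9 to 10% lay 14 and 22 barcodes, and from 10 to 11% lay 8 and 12. Barcodes just outside, at 8 to 10%, had Tff3, a goblet trefoil factor, at 25499 and 19210 CPM, and those just inside, at 10 to 12%, at 24126 and 26732. Mmp7 was at 3058 and 3082 CPM just outside and at 3379 and 3196 just inside. On both sides of the limit, the barcodes held Paneth and goblet transcripts side by side.

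**Figure D1:**
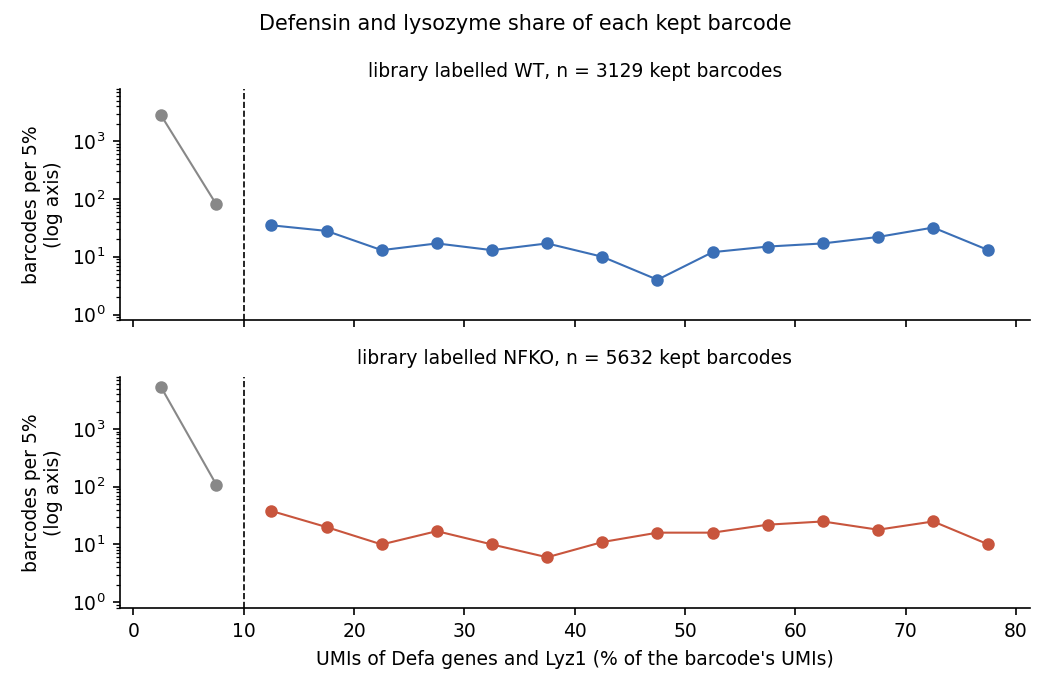
Number of kept barcodes (log axis) by the percentage of their UMIs that came from Defa genes and Lyz1, in steps of 5%, for each library, with the part under the 10% limit in grey. Counts fall steeply up to the limit and both libraries show higher counts again above 50%, where 111 WT barcodes and 116 of the NFKO-labelled library lie.

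The alpha-defensin genes lie together on chromosome 8. The 22 Defa genes in the gene lists span 21025545 to 21735471 on GRCm38, a stretch of 710 kb. Another 6 genes in the same stretch carry provisional symbols in the files, so the rule did not count them, but RefSeq names them as defensins: Gm14851 is Defa38, AY761184 is Defa39, Gm15292 is Defa40, Gm15293 is Defa41, Gm7849 is Defa42 and Gm7861 is Defa43. They added 6.41% of all UMIs of the WT Paneth barcodes and 6.93% of the others to the 55.8% and 54.3% from the rule genes. In the barcodes at 50% or more, defensins and Lyz1 together came to 74.7% and 73.8% of UMIs, and in the single highest barcode to 86.2% and 85.6%. The genes are close copies of each other. Over the last 100 bases of their transcripts, where 3′ reads fall, the 45 pairs among the 10 most abundant Defa genes were 50.9% to 99.0% identical, and 13 pairs passed 90%, such as Defa22 with Defa21 at 98.0% and Defa24 with Defa30 at 96.0%. How the counting split reads between such copies is not known, so values of single members are uncertain where a near copy exists.

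The promoters of 4 members are shown because these genes set the most defensin-rich barcodes apart from the others below. Each is the RefSeq sequence on GRCm38.p6 from 250 bases before to 50 bases after the gene start, read along the gene's strand. Capitals mark every CTTTGA or CTTTGT on either strand (TCAAAG or ACAAAG when it lies on the other strand), the core recognised by TCF/LEF factors, which act in Wnt signalling. Defa22 lies on the plus strand at chr8:21162027-21162326, and the promoter of Defa21 is identical to it over all 300 bases. Defa30 lies on the plus strand at chr8:21134400-21134699, Gm15293 (Defa41) on the plus strand at chr8:21201354-21201653 and Gm14851 (Defa38) on the minus strand at chr8:21096001-21096300.
Defa22: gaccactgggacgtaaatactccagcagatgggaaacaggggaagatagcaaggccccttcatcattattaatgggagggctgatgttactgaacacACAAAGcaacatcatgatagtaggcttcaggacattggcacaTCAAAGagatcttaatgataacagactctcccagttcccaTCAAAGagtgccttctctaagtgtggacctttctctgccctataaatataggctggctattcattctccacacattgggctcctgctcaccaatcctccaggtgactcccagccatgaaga
Defa30: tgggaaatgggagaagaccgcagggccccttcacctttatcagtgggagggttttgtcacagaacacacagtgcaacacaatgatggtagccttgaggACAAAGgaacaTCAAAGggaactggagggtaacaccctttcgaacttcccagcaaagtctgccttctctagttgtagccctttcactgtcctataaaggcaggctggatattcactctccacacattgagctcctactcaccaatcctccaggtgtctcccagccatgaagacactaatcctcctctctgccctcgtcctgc
Gm15293: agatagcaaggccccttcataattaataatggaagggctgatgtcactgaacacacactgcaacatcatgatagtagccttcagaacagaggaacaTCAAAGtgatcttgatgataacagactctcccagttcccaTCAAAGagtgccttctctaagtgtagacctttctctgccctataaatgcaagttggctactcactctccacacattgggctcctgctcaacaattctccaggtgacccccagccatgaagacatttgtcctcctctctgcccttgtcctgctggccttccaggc
Gm14851: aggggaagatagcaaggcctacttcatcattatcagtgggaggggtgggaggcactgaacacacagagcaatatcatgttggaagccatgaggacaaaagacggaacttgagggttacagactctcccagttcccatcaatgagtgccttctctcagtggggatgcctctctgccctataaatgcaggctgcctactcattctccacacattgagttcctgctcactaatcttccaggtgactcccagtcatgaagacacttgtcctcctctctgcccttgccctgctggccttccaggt
Defa22 held 3 matches, Defa30 and Gm15293 held 2 each and Gm14851 held 0. Identity to the Defa22 promoter was 80.4% for Defa30, 91.1% for Gm15293 and 86.2% for Gm14851. Of 16 defensin promoters in the table, 13 held a match (81.2%) and 7 held at least 3 (43.8%), beside 31.2% and 1.14% of all 32851 promoters. The copies share much of their sequence, so these matches are not independent of each other, and a match is a run of letters and not a shown binding site.

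Defa24 was the most abundant defensin. It had 261444 UMIs per 1000000 of all UMIs in the WT Paneth barcodes and 244030 in the NFKO-labelled library, and made up 50.3% and 48.5% of all Defa UMIs. Defa30 followed at 21.5% and 18.9%, Defa22 at 10.4% and 11.3%, Defa21 at 8.06% and 10.8%, Defa29 at 3.19% and 4.19%, Defa36 at 1.70% and 1.11% and Defa17 at 1.23% and 1.95%. The order of the first 5 was the same in both libraries, and Defa36 and Defa17 changed places.

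The mix of defensins differed along the share of the rule genes. The rule used the sum of the Defa genes and not their proportions. That sum includes Defa30, Defa22 and Defa21, however. A barcode with more of these for the same Defa24 lies higher along the share. Part of the shift is therefore built in, and the mix along the ranges describes the barcodes and tests nothing. In barcodes at 10 to 30%, Defa24 made up 85.9% of Defa UMIs in WT and 78.7% in the NFKO-labelled library. At 30 to 50% it made up 68.6% and 61.7%, and at 50% or more 46.5% and 44.8%. Defa30 went the other way, from 2.38% and 6.44% to 11% and 14.4% and then 23.6% and 20.3%. Defa22 went from 0.724% and 2.5% to 11.5% and 12.6% between the lowest and the highest of these ranges, and Defa21 from 0.568% and 2.18% to 8.97% and 12.1%. Defa17 moved with Defa24, from 5.35% and 5.59% to 0.817% and 1.46%. These pooled shares weight deep barcodes most, and single barcodes showed a wide spread. In WT barcodes at 10 to 30% the share of Defa30 had a median of 0.689% with quartiles of 0.458% and 2.31%, and its highest barcode reached 32.1%. In WT barcodes at 50% or more the median was 24.3% with quartiles of 19.1% and 27.0%, and the lowest was 1.28%. In the NFKO-labelled library the medians were 1.95% (quartiles 0.208% and 14.9%) and 21% (18.4% and 24.2%). The quartiles of the lowest and highest ranges did not overlap in either library, although single barcodes did.

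The Defa24-rich mix went on below the limit. Barcodes at 5 to 10%, which were not counted as Paneth barcodes, had 91.5% of their Defa UMIs from Defa24 in WT (91.4 to 91.6) and 89.6% in the NFKO-labelled library (89.4 to 89.7). Defa30 made up 1.44% and 2.04% there. In tuft barcodes, which should lack defensins, Defa24 made up 51.5% and 61.8% and Defa30 20.2% and 15.6%. Among the single barcodes of the NFKO-labelled library at 10 to 30%, the lower quartile of Defa24 was 59.5% and the upper quartile of Defa30 14.9%, so that some of them had a mix like that of the tuft barcodes. The part of free RNA in these mixes was not tested.

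**Figure D2:**
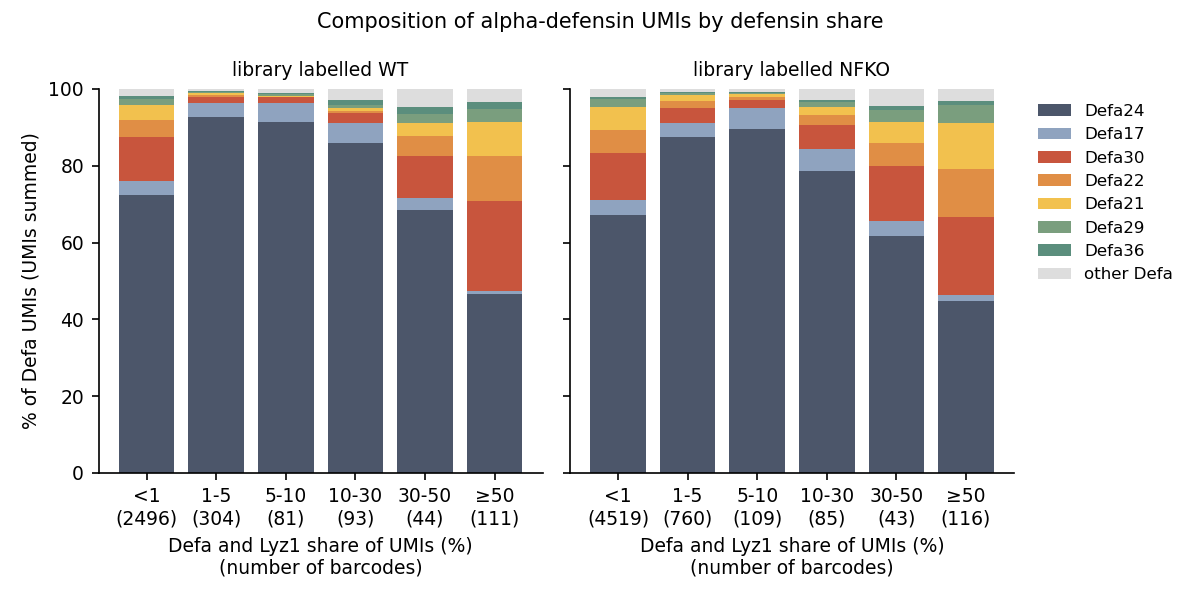
Percentage of all Defa UMIs from each defensin gene, stacked to 100%, for barcodes grouped by their share of rule-gene UMIs, in WT and in the NFKO-labelled library. Defa24 takes 91.5% and 89.6% at 5 to 10% and 46.5% and 44.8% at 50% or more, while Defa30, Defa22 and Defa21 widen.

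Genes outside the rule that ran highest in Paneth barcodes were led by further defensins and granule proteins. Ranked by the lower of the ratios of the 2 libraries over the remaining barcodes, all 6 defensins with other symbols were among the first 15. AY761184 had 72482 CPM in WT and 79260 in the NFKO-labelled library, Gm14851 had 53590 and 50787, Gm15293 had 10835 and 7575, Gm15292 had 3932 and 4838, Gm7861 had 3865 and 8913 and Gm7849 had 112 and 132. Itln1, an intelectin that binds microbial sugars, stood at 89890 and 73550 CPM, 56.3 and 83.0 times the remaining barcodes. Mptx2, a mucosal pentraxin, stood at 45571 and 19665 CPM, 842 and 426 times the remaining barcodes. Ang4, a microbicidal ribonuclease, stood at 9258 and 13367 CPM, 461 and 284 times. Lipid digestion genes were on the list too. Clps, the colipase, had 5263 and 7606 CPM (83.7 and 33.9 times), and Pnliprp2, a pancreatic lipase-related protein, 689 and 910 (461 and 216 times). The pancreatic acinar list as a whole summed to only 33.8 and 37.1 CPM, mostly Cela1 at 23.3 and 25.3. The remaining 4 of the 15 were Pdia2, a protein disulfide isomerase, at 86.0 and 83.6 CPM, Habp2, a hyaluronan-binding protease, at 200 and 211, Samd5 at 94.3 and 107 and Smim38 at 66.3 and 73.6. Over all genes, 66 of 1665 (3.96%) exceeded the remaining barcodes by 2-fold or more in both libraries and 139 (8.35%) fell short of them by as much, with a median log2 ratio of -0.53 in WT and -0.44 in the other library. Of 19 abundant antimicrobial and granule genes, which include defensins with other symbols, 15 were higher and 0 lower. The same cells were chosen by a readout that moves with these genes, so the ratios describe the cells and test nothing.

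Several granule genes were graded along the share of the rule genes. Between barcodes at 50% or more and those at 10 to 30%, 22 of 2021 genes (1.09%) were 2-fold or more higher in both libraries and 191 (9.45%) 2-fold or more lower. The median log2 ratio over all genes was -0.69 in WT and -0.52 in the NFKO-labelled library. This shift goes with a larger part of the UMIs being taken by granule genes outside the rule, the defensins with other symbols among them. The sum of these granule genes went from 106491 to 493194 CPM in WT and from 101056 to 423799 in the other library. Of the 19 abundant granule genes, 8 were higher and 2, Ang and Retnlb, were lower. The 8 include the defensins AY761184, Gm14851, Gm15292, Gm15293 and Gm7849. A rise of these along a share of defensin UMIs is close to built in, so the count tests nothing.

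Gm14851 was the steepest. It had 418 CPM at 10 to 30%, 8235 at 30 to 50% and 99074 at 50% or more in WT, and 1284, 14709 and 93253 in the NFKO-labelled library. In single WT barcodes its median was 92.5 CPM (quartiles 33.5 and 171) in the lowest range and 86199 (36646 and 151667) in the highest. Ang4 went from 1043 to 15652 CPM in WT and from 1151 to 21905 in the other library between the same ranges. Itln1 went from 32110 to 131487 and from 25067 to 105035, Clps from 1116 to 8263 and from 2010 to 11257, and Pnliprp2 from 50.6 to 1205 and from 93.7 to 1517. Bambi, a decoy receptor of the TGF-beta family, went from 43.2 to 197 CPM and from 53.3 to 199. Nupr1, a stress-induced nuclear protein, went from 697 to 2145 and from 684 to 1830, and Ggh, a folate-processing hydrolase, from 40.7 to 184 and from 30 to 156.

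Mmp7 was nearly level, at 4942 CPM in the lowest range and 4801 in the highest in WT, and at 4703 and 4587 in the NFKO-labelled library. Habp2 was at 168 and 204 CPM in WT and at 182 and 219 in the other library. Bhlha15, a transcription factor of secretory cells also known as Mist1, was at 81.1 and 82.4 and at 76.6 and 88.2. Wnt3 was at 92.0 and 71.1 and at 115 and 104. The median of all genes was lower in the highest range, so a level CPM puts these genes above that median. The enzyme that cuts the defensins was thus present at a similar CPM in barcodes that differed in defensin mix and in Gm14851. This CPM leaves out the rule genes. They made up 18.3% of all UMIs in the lowest range and 67.4% in the highest in WT, and 18.6% and 65.9% in the NFKO-labelled library. As a part of all UMIs, Mmp7 was therefore lower in the highest range.

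Goblet genes ran the opposite way. Of 9 abundant goblet genes, 8 were at least 2-fold lower in barcodes at 50% or more in both libraries, against 9.45% of all genes. Tff3 stood at 17154, 4332 and 1264 CPM along the ranges in WT and at 18178, 8886 and 3848 in the NFKO-labelled library. Muc2, the main gel-forming mucin, went from 5048 to 1692 and from 5310 to 2214, and Agr2, a disulfide isomerase needed for mucin, from 14909 to 2463 and from 14031 to 4840. Fcgbp, a mucus protein, went from 2254 to 87.4 CPM in WT and from 3762 to 1011 in the other library. For scale, goblet barcodes, defined by 4 mucus genes at 1% or more of UMIs, had Tff3 at 41285 and 53110 CPM, Muc2 at 7918 and 12690 and Fcgbp at 11384 and 20438. The whole goblet list summed to 116945 and 119973 CPM in the lowest range and to 38862 and 50084 in the highest, against 150775 and 219880 in goblet barcodes. Spink4, which is on the goblet list but also higher in Paneth barcodes than in the remaining ones, was the member that did not pass 2-fold in both libraries, at 72537, 75284 and 32248 CPM along the ranges in WT and 61522, 75608 and 34550 in the NFKO-labelled library, so that it too was lowest in the highest range. The part that doublets of a Paneth and a goblet cell had in the lowest range was not tested beyond the Scrublet scores, which placed 4 of its 93 WT barcodes and 6 of its 85 others among the highest.

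Other lists differed less along the ranges. Of 26 endoplasmic reticulum folding genes, 0 were higher and 6 were lower in the highest range, against 1.09% and 9.45% of all genes. The 6 were the chaperones Hsp90b1 and Calr, the isomerases Pdia3 and Pdia4, the stress sensor Ern2 and the translocon protein Ssr2. Hsp90b1 had 1011 CPM at 10 to 30% and 352 at 50% or more in WT, and 804 and 398 in the NFKO-labelled library. Pdia2 ran the other way, from 43.9 to 110 CPM and from 28.1 to 124. Of 13 abundant secretory transcription factors, 2 were lower, Spdef (171 to 62.0 CPM and 190 to 86.2) and Creb3l1 (148 to 28.7 and 181 to 64.9). With 9.45% of all genes lower, 2 of 13 is no result about the list. Slc30a2, the transporter that loads zinc into granules, went from 56.2 to 124 CPM and from 27.1 to 60.8. At 3000 UMIs outside the rule genes, WT barcodes held a median of 1104, 1016 and 819 genes along the ranges and the others 1168, 990 and 921, against 1176 and 1157 in goblet barcodes.

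**Figure D3:**
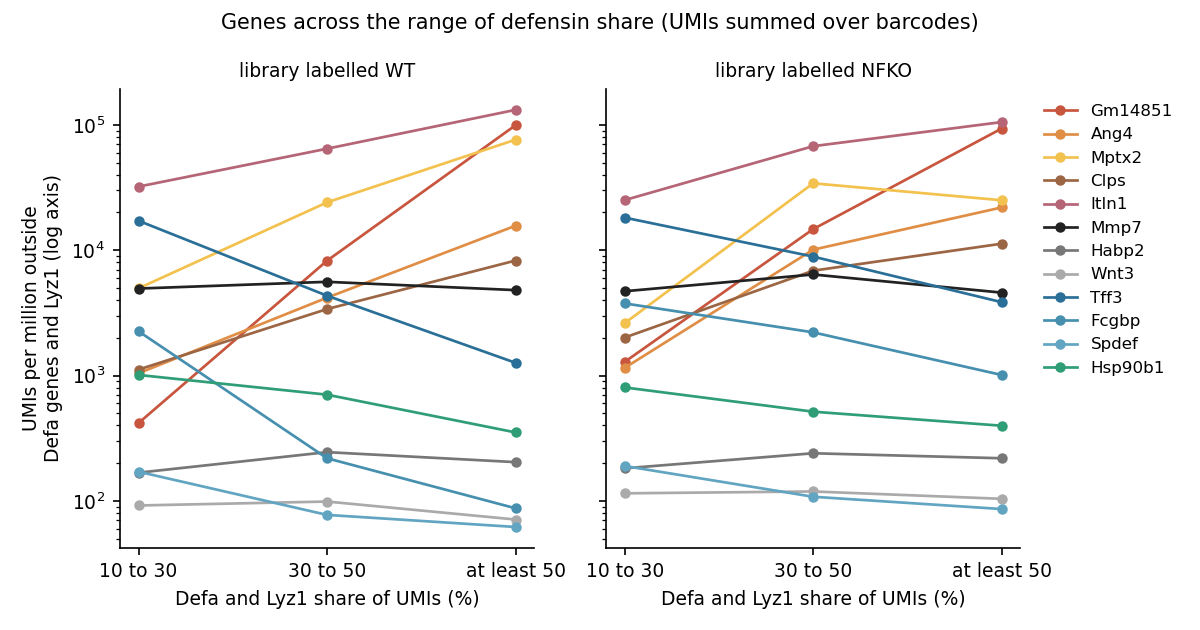
CPM on a log axis (UMIs per 1000000 outside Defa genes and Lyz1) of 12 genes in barcodes at 10 to 30%, 30 to 50% and 50% or more of rule-gene UMIs, with 1 line per library and 1 pooled value per point. Gm14851 climbs from 418 to 99074 CPM in WT, Mmp7 stays between 4801 and 5590 CPM in WT, and Tff3 drops from 17154 to 1264 CPM.

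Among the 15 niche ligands listed, only Wnt3, which sustains stem cells, was abundant enough to compare. It had 775 UMIs (82.2 CPM) in the WT Paneth barcodes and 744 (110 CPM) in the NFKO-labelled library, 4.16 and 3.88 times the remaining barcodes. At 3000 UMIs it was seen in 21.5% (16.5 to 27.1) and 27.6% (21.6 to 34.3) of Paneth barcodes, beside 0% and 1.55% of tuft barcodes. Goblet barcodes had it in 1.61% and 2.21%, and enteroendocrine barcodes in 11.1% (8.72 to 13.8) and 12.5% (10.6 to 14.7), so Wnt3 was not particular to Paneth barcodes. Wnt3a was at 0, the Notch ligands Dll1 and Dll4 were at 21.3 and 22.7 and at 20 and 24.7 CPM, below the 58.3 and 53.4 and the 40.8 and 40.3 CPM of the remaining barcodes, and Egf was at 4.88 and 3.69. Of 5 abundant Wnt receptors and targets, 2 exceeded the remaining barcodes by 2-fold or more, against 3.96% of all genes, namely the transcription factor Sox9 at 286 and 218 CPM and the ephrin receptor Ephb3, which positions Paneth cells in the crypt, at 118 and 90.2. Lgr5, the stem cell receptor, had 45.8 and 39.1 CPM, against 10.6 and 5.15 in the remaining barcodes. At 3000 UMIs Lgr5 was seen in 12.6% and 8.87% of Paneth and in 9.38% and 8.53% of tuft barcodes, so it was not particular to Paneth barcodes. Goblet barcodes (0.134% and 0.130%) and enteroendocrine barcodes (1.58% and 0.664%) had it less often. Of 8 abundant glycolysis genes, 6 were at least 2-fold lower than in the remaining barcodes, against 8.35% of all genes, such as Pkm, pyruvate kinase, at 70.9 and 111 CPM against 194 and 350. Klf15, a transcription factor, was low at 11.7 and 15.7 CPM but had 0.257 and 0.564 CPM in the remaining barcodes. Of the genes for microbial sensing, Nod2 had 1 and 2 UMIs and Tlr4, Tlr9 and Lrrk2 had 0.

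The share of Paneth barcodes was 7.93% (7 to 8.93) in WT and 4.33% (3.82 to 4.90) in the NFKO-labelled library, a ratio of 0.547 (0.456 to 0.655). The ratio was of like size at 10 to 30% (0.508, 0.374 to 0.689), at 30 to 50% (0.543, 0.348 to 0.846) and at 50% or more (0.581, 0.444 to 0.760). Among all deposited barcodes, without the filters, it was 0.758, and among male-typed barcodes, of which 213 WT and 10 others were Paneth barcodes, it was 0.326 (0.154 to 0.611). The sort sets which cells enter these shares. The filters together removed 38.1% of the deposited WT barcodes and 25.3% of those of the NFKO-labelled library. A share of the kept barcodes is therefore not a share of the tissue.

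The libraries differed in the proportions of some defensins. Per 1000000 of all UMIs, Defa24 had a ratio of the NFKO-labelled library over WT of 0.933 (0.932 to 0.935), Defa22 of 1.05 (1.05 to 1.06) and Lyz1 of 1.06 (1.05 to 1.06). With median-of-ratios size factors Defa22 and Lyz1 were at 0.951 and 0.956, so their direction depended on the scaling. Defa36 went from 8836 in WT to 5556, a ratio of 0.629, and Defa34, which is 99.0% identical to it over the last 100 bases, from 4946 to 3362, a ratio of 0.680. Defa23 went from 2073 to 930 (0.449). Defa17 went from 6402 to 9822 (1.53) and Defa21 from 41910 to 54265 (1.29), although Defa21 had a ratio of 0.194 when only the 213 and 10 male-typed barcodes were used. Along the 3 ranges, from lowest to highest, the male-typed barcodes numbered 86, 36 and 91 in WT and 7, 1 and 2 in the other library. Defa21 itself differed along those ranges, so the male-typed ratio does not compare like with like. Outside the rule, Gm7861 had 3865 CPM in WT and 8913 in the NFKO-labelled library (ratio 2.31, 2.28 to 2.34). Gm15293 had 10835 and 7575 (ratio 0.699). How reads were split between near-identical copies cannot be told apart from expression in these ratios.

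Few genes differed by 2-fold or more between the Paneth barcodes of the libraries. Over 1989 genes abundant enough to compare, 31 (1.56%) had a ratio of 2-fold or more and 18 (0.905%) were lower by 2-fold or more, which is 2.46% in either direction, and the median log2 ratio was 0.12. Of 8 abundant Paneth markers outside the rule 1, Mptx2, passed 2-fold. Mmp7 had a ratio of 0.993 (0.979 to 1.01), Itln1 of 0.818, Ang4 of 1.44, Clps of 1.45 and AY761184 of 1.09. Slc30a2 had 109 CPM in WT and 50.1 in the NFKO-labelled library, a ratio of 0.461 (0.407 to 0.522), beside 0.821 in the remaining barcodes. None of 12 abundant secretory transcription factors and none of 25 folding genes passed 2-fold, which is near the 2.46% of all genes that did.

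The mucosal pentraxins Mptx2 and Mptx1, related genes on chromosome 1 (173274382 to 173277777 and 174330518 to 174332873), had pooled ratios on opposite sides of 1. Mptx2 had 429662 UMIs (45571 CPM) in WT and 133145 (19665 CPM) in the NFKO-labelled library, a ratio of 0.432 (0.429 to 0.434). Mptx1 had 1055 UMIs (112 CPM) and 34818 (5143 CPM), a ratio of 46.0 (43.2 to 48.9). The lower pooled Mptx2 did not hold in every range. At 30 to 50% its pooled level was higher in the NFKO-labelled library, at 24045 CPM in WT and 34141. There 61.4% (45.5 to 75.6) and 72.1% (56.3 to 84.7) of barcodes had 1000 CPM or more. The medians of single barcodes in that range went the other way, at 9730 CPM in WT and 4294. At 10 to 30% the pooled level was 4961 and 2615 CPM, while the medians were 87.2 and 148. The direction in these 2 ranges thus depended on how barcodes were weighted. At 50% or more the pooled level was 75998 and 24998 CPM, a ratio of 0.329 (0.327 to 0.331). In that highest range 108 of 111 WT barcodes (97.3%, 92.3 to 99.4) had Mptx2 at 1000 CPM or more, against 76 of 116 (65.5%, 56.1 to 74.1). The medians were 69288 CPM (quartiles 46405 and 103257) and 7793 CPM (261 and 39522), so that the quartiles did not overlap. Restricted to barcodes with at least 10000 UMIs outside the rule genes, the shares were 106 of 109 and 56 of 82 (68.3%), beside the 97.3% and 65.5% over all depths. At 10 to 30% the shares at 1000 CPM or more were 30.1% and 34.1%.

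Mptx1 at 1000 CPM or more was found in 9 of 248 WT Paneth barcodes (3.63%, 1.67 to 6.78) and in 85 of 244 of the others (34.8%, 28.9 to 41.2). In the NFKO-labelled library, 39 barcodes passed that level for both genes, 46 for Mptx1 alone, 97 for Mptx2 alone and 62 for neither, while WT had 7, 2, 156 and 83. At 3000 UMIs, a Mptx1 UMI was seen in 12.6% and 57.6% of Paneth barcodes and in 0% and 6.20% of tuft barcodes. Mptx1 was not particular to Paneth barcodes, since the remaining barcodes had 18.0 and 1120 CPM, a ratio of 62.3, and goblet barcodes 49.6 and 3002 CPM. The transcripts are 82.9% identical over their last 100 bases.

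**Figure D4:**
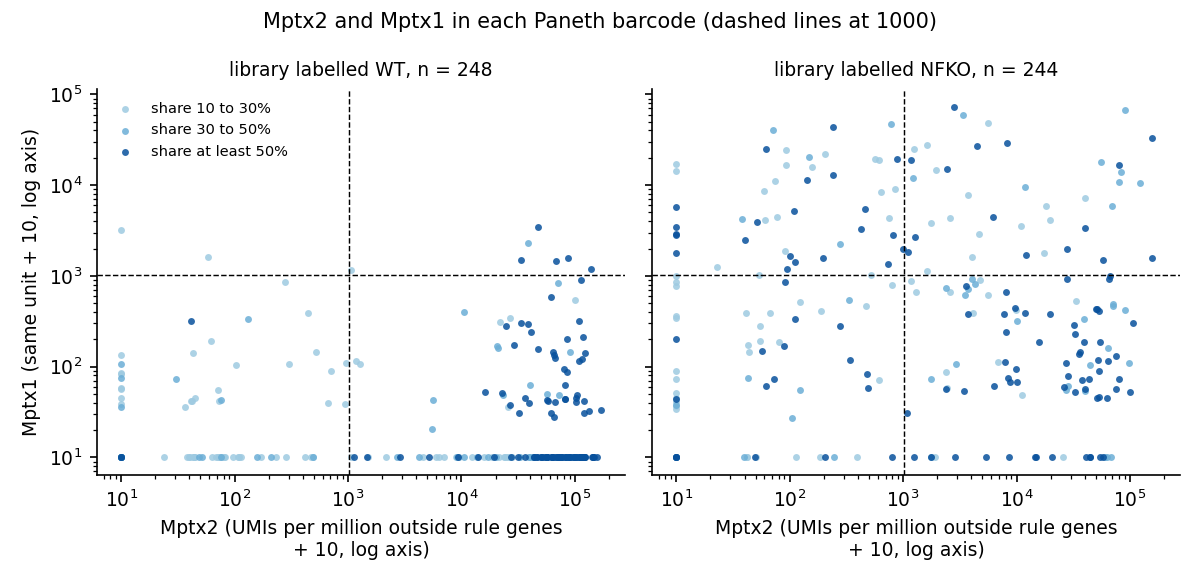
Mptx2 against Mptx1 in each Paneth barcode, in CPM plus 10 on log axes, for WT and for the NFKO-labelled library, coloured by share of rule-gene UMIs, with dashed lines at 1000 CPM. Points above 1000 CPM of Mptx1 number 9 in WT and 85 in the NFKO-labelled library, and 46 of the latter lie under 1000 CPM of Mptx2.

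Of the genes highest in the Paneth barcodes of the NFKO-labelled library, several are secreted by other cell types. After Gm10260 and Mptx1, the list held the hormone genes Nts (23.2 and 302 CPM), Sst (12.4 and 131), Cck (50.9 and 496) and Pyy (19.0 and 105), with ratios of 13.0, 10.6, 9.74 and 5.52. In the NFKO-labelled library 3 barcodes held 56.7% of the Cck UMIs, and without the 3 top barcodes of each library its ratio was 4.92. The endocrine granule genes Chga (16.2 and 98.8 CPM, with a ratio of 6.09, or 9.28 without the 3 top barcodes) and Cpe (11.6 and 58.5), the goblet lectin Zg16 (683 and 5911) and the enterocyte apolipoprotein Apoa1 (6.79 and 68.5) completed it. Each was also higher in the remaining barcodes of that library, with ratios of 4.80 for Nts, 3.61 for Sst, 2.02 for Cck, 1.87 for Pyy, 2.89 for Zg16 and 5.74 for Apoa1. At 3000 UMIs, Nts was seen in 6.48% of WT Paneth barcodes and 55.2% of the others, beside 14.1% and 27.1% of tuft barcodes. Zg16 was seen in 26.3% and 91.1% of Paneth and in 31.2% and 86.8% of tuft barcodes, so its shares in Paneth barcodes were close to those in cells that should lack it. Of 9 abundant hormone genes, 8 were at least 2-fold higher, against 1.56% of all genes, and the exception was Ghrl at 149 and 113 CPM. The hormone list summed to 988 and 3432 CPM in Paneth barcodes, against 66717 and 109126 in enteroendocrine barcodes. Of 9 abundant goblet genes, 3 were at least 2-fold higher, Fcgbp (ratio 2.72), Clca1 (4.86) and Zg16 (8.65), against the same 1.56%, and 0 lower. In WT 3 barcodes held 58.9% of the Zg16, 66.0% of the Clca1 and 22.8% of the Fcgbp UMIs. In the NFKO-labelled library these were 46.3%, 35.8% and 19.5%, so the pooled CPM of Zg16 and Clca1 is not that of a typical Paneth barcode. In WT and the NFKO-labelled library, 3 barcodes held 36.7% and 24.5% of the Cpe UMIs and 37.5% and 21.8% of the Apoa1 UMIs. Gm10260, which RefSeq lists as the ribosomal pseudogene Rps18-ps6, had 3 UMIs in the WT Paneth barcodes and 636 in the others, with a ratio of 295 (101 to 1435) in Paneth and 237 in the remaining barcodes.

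Heat shock genes were lowest. Hspa1b, an inducible Hsp70, had 1890 UMIs (200 CPM) in WT and 57 (8.42 CPM) in the NFKO-labelled library, a ratio of 0.0420 (0.0317 to 0.0547), beside 0.0879 in the remaining barcodes. Hspa1a had a ratio of 0.0538, Hsph1 of 0.269, Dnajb1 of 0.316 and Hsp90aa1 of 0.348, with 0.0693, 0.305, 0.326 and 0.477 in the remaining barcodes. Of 9 abundant heat shock genes, 5 were at least 2-fold lower and 0 higher, against 0.905% of all genes. The other 5 of the 10 lowest were Cd74, the invariant chain of MHC class II (278 and 94.1 CPM), Mki67, a proliferation gene (60.5 and 21), Acadl, of fatty acid oxidation (131 and 45.2), mt-Atp8 (389 and 147) and Fabp6, the ileal bile acid carrier, whose ratio of 0.169 rested on 3 barcodes. Without the 3 barcodes with most Fabp6 UMIs in each library its ratio was 1.43, so its direction was set by them. Of 4 abundant stem cell genes, 2 were lower by 2-fold or more, against 0.905% of all genes. Olfm4 stood at 563 and 241 CPM (ratio 0.428, beside 0.291 in the remaining barcodes) and Clca3b at 166 and 72.4 (ratio 0.437).

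**Figure D5:**
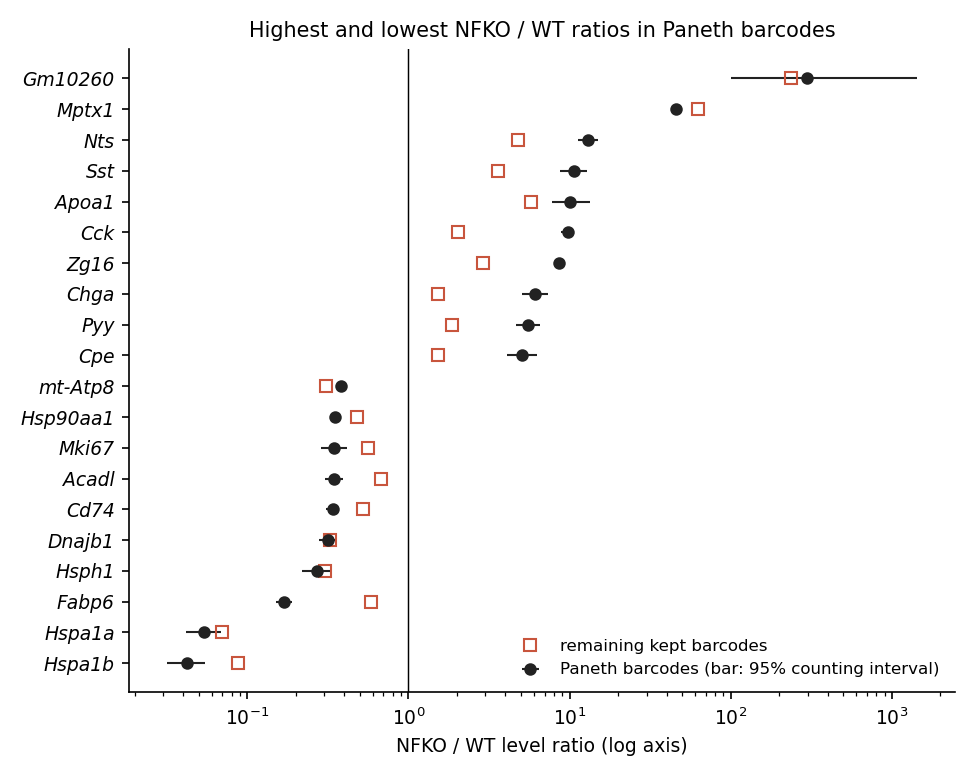
Ratio of the NFKO-labelled library over WT on a log axis for the 10 highest and 10 lowest genes in Paneth barcodes, with 95% counting intervals, and squares for the ratio of the same gene in the remaining barcodes. The squares lie on the same side of 1 as the circles for each of the 20 genes, for example 46.0 and 62.3 for Mptx1 and 0.0420 and 0.0879 for Hspa1b.

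Genes tied to the targeted factor were examined last. Foxo3 had ratios of 0.876 (0.571 to 1.33) and Foxo4 of 1.17 (0.803 to 1.71), both with intervals that include 1. Of 5 abundant FoxO target genes, 0 passed 2-fold in either direction, and with 2.46% of all genes passing this says nothing particular of the list. Ins1 was at 0 in both libraries. Ins2 had 0 UMIs in WT, which allows up to 0.318 CPM, and 5 UMIs in 5 of 244 Paneth barcodes of the NFKO-labelled library (2.05%), or 0.738 CPM. The remaining barcodes of that library had 25 Ins2 UMIs, or 0.239 CPM, so at this depth the level in Paneth barcodes rests on few molecules. Cd24a, a surface protein used to sort Paneth cells, had 1366 and 1744 CPM, a ratio of 1.28, beside 1.40 in the remaining barcodes.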

How the data were processed

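Tomato-positive cells of mouse small intestine were profiled by 10x Genomics 3′ single-cell RNA-Seq, 1 library per group. The deposited values are raw UMI counts for 32285 genes in each barcode, which the authors made with Cell Ranger 5.0.1 on mm10, per the submitters' processing notes. The annotation of cells by the authors was not used. Raw UMI counts do not correct for free RNA in the droplets, and reads of near-identical defensin genes may be assigned to either copy or dropped.

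Kept barcodes had 500 genes and 1000 UMIs or more and 25% mitochondrial UMIs or fewer, and Paneth barcodes were those with at least 10% of UMIs from 22 Defa genes and Lyz1. The members and gene lists were chosen with earlier results of these data known. Goblet barcodes had Muc2, Fcgbp, Clca1 and Zg16 at 1% of UMIs or more, enteroendocrine barcodes Chga and Chgb at 0.5%, and tuft barcodes Dclk1, Trpm5, Avil, Lrmp and a marker not reported here at 0.2%, all outside the Paneth rule and in a single set.

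UMIs were summed over the barcodes of a library and divided by all UMIs for the rule genes or by the UMIs outside them for other genes (CPM). Genes were compared from 50 CPM in either library and 100 UMIs in total upwards, and 2-fold was the limit for a call. Named genes were the 5 markers, the 10 most abundant Defa genes, list members above 50 CPM, the 15 highest over the remaining barcodes and the 10 highest and 10 lowest ratios of the NFKO-labelled library over WT with a UMI in at least 10% of Paneth barcodes. Genes named outside that rule, such as Klf15, Bambi, Ggh and low niche ligands, were chosen after their values were seen. Xist and Y-linked genes were left out. No p-value was computed, since each group is 1 library from pooled mice. Sums have exact Poisson, shares exact binomial (Clopper-Pearson) and ratios exact conditional binomial 95% intervals. A count of 0 was read as allowing 3 counts. No doublets were removed in the values reported. Promoters were RefSeq sequences on GRCm38.p6 and gene positions GENCODE M21, in which 32235 identifiers matched. The scripts were tested on simulated counts. Python 3.11.15, numpy 2.4.6, scipy 1.17.1, scanpy 1.11.5 and biopython 1.88 were used. Alternatives were another share limit, doublet removal, a stricter mitochondrial limit, male-typed barcodes, other denominators and weights, and no filter.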

Additional observations from a re-analysis of the deposited data

How the results depend on the processing

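No paired analysis was possible because each group is 1 library. The share of Paneth barcodes, with a ratio of 0.547, was 0.596 at a limit of 5%, 0.559 at 20%, 0.565 without the highest Scrublet scores and 0.514 at 15% mitochondrial UMIs. It moved to 0.326 in male-typed barcodes, to 0.758 over every deposited barcode and, in an alternative chosen after seeing the data, to 0.449 with at least 10000 UMIs outside the rule genes.

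The 31 genes higher and 18 lower in the NFKO-labelled library became 106 and 100 in male-typed barcodes, of which only 10 were in that library, 19 and 11 with all UMIs as the denominator, under which 881 genes could be compared, and 830 and 504 among 12219 genes with no CPM minimum. The higher genes were 47 with each barcode weighted equally and, chosen after seeing the data, 54 in barcodes at 50% or more. Weighting barcodes equally put Defa24 at 66.1% and 59.8% of Defa UMIs.

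Of 728 gene ratios under alternatives, 394 stayed within the main counting interval, another 311 moved outside it and 23 turned direction. In male-typed barcodes the turned ratios were Defa22 (0.341), Lyz1 (0.849), Defa24 (1.01), Defa21 (0.194), Defa29 (0.672), Gm15292 (0.506), Gm7849 (0.952), AY761184 (0.937), Pnliprp2 (0.743), Samd5 (0.942), Clps (0.999) and Cd24a (0.823). Of the male-typed Paneth barcodes, 86 of 213 in WT and 7 of 10 in the other library lay at 10 to 30%, so these ratios do not compare like ranges. With median-of-ratios size factors the turned ratios were Defa22 (0.951) and Lyz1 (0.956), and with equal weights Gm14851 (1.03) and Samd5 (0.943). Fabp6 was at 4.89 without the highest Scrublet scores and at 1.43 without its 3 top barcodes. Chosen after seeing the data, barcodes at 50% or more turned Samd5 (0.995), and those at 10 to 30% turned Defa30 (2.76), Gm14851 (3.08), Gm7849 (0.873) and Defa23 (1.05). The causes were not tested. Counting depth limits genes of few UMIs such as Foxo1 and Ins2, and no alternative gives the spread between mice.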

Other observations

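The ligands of the EGF receptor Areg and Hbegf were lower in the Paneth barcodes of the NFKO-labelled library, at low levels. Areg had 301 UMIs (31.9 CPM) in WT and 77 (11.4 CPM), and Hbegf had 430 (45.6 CPM) and 73 (10.8 CPM), with ratios of 0.356 (0.274 to 0.459) and 0.236 (0.182 to 0.304). In the remaining barcodes the ratios were 0.373 and 0.518. Atoh1, the factor that secretory progenitors need, had 94.4 and 151 CPM, a ratio of 1.60 (1.46 to 1.75), beside 1.61 in the remaining barcodes. Creb3l1 had a ratio of 1.46 (1.31 to 1.63), which was 2.26 (1.83 to 2.81) in barcodes at 50% or more. None of 12 abundant immediate early genes passed 2-fold, which is near the 2.46% of all genes that did.

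The filters removed 42 WT barcodes and 84 of the NFKO-labelled library that had at least 10% of UMIs from the rule genes, of which 14 in each library were over the mitochondrial limit.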
